A study of Mus musculus with 5 samples.

Results

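The binding of Olig2 was compared between a list of sites recovered with an antibody to the native protein and a list recovered with an antibody to a V5 tag on an induced copy. The members were all listed events on the 19 autosomes and X in the 2 day 4 event tables, chosen by sample and not by their values. These were 15697 native and 11067 V5 sites, 26764 of the 87107 sites in the 4 lists of the series. A native or V5 site was called shared when the other Olig2 list held a site within 200 bp, and native-only or V5-only otherwise.

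Both lists came from 1 mouse embryonic stem cell line, Ainv15 with inducible V5-tagged Olig2, turned into motor neuron progenitors as embryoid bodies. Retinoic acid (1 µM) and a hedgehog agonist (0.5 µM) were given from day 2, and chromatin was taken on day 4. The native list came from cells without doxycycline, and the V5 list from cells given doxycycline, which switches on the tagged copy, at 3 µg/ml. The Hoxc9 lists used below for comparison came from day 5 cells of other Ainv15 lines, with doxycycline and a V5 or a Flag tag. Each Olig2 list came from 1 library of a single line. Doxycycline, antibody and library therefore changed together and cannot be told apart, and no difference between the lists has a replicate check or a test. Wilson 95% intervals are given for percentages; they cover counting error only, and neighbouring sites are not independent.

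Olig2 is a basic helix-loop-helix transcription factor that binds E-box DNA, usually as a repressor, and sets the identity of motor neuron progenitors in the ventral spinal cord. Hedgehog signalling induces it there, and the same factor is later needed for oligodendrocytes. Chromatin immunoprecipitation (ChIP) recovers the DNA around a bound factor, so that the reads at a site, here called IP reads, follow how much of that DNA was recovered. An epitope tag lets 1 standard antibody serve for any factor, at the price of adding a copy of the protein to the cell. Sites are given as single bases in mm9, and no gene is named because only gene tables of another build were at hand.

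The lists had nearly equal sums of IP reads over their sites, 753019 in the native list and 748765 in the V5 list. In the native list the reads were spread over more sites, with fewer listed reads per site. IP reads per site ran from 11.1 through a median of 31.5 to 1152 in the native list, and from 15 through 47.4 to 1232.5 in the V5 list. The 10% of sites with most reads held 34.8% of native and 32.5% of V5 IP reads. Median control reads, the reads listed for the control at the same site, were 1 and 3.1. IP, control and fold values are the authors' own. Because the depth of the libraries is unknown, sites were ranked by reads within a list, and reads of the lists are set side by side only as listed. Cut-offs in IP reads were the same for both lists and need not mean the same strength in each.

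Strong sites were found in both lists far more often than weak ones. Over whole lists 56.7% of native sites were shared and 43.3% were native-only (6792 sites), while 78.1% of V5 sites were shared and 21.9% were V5-only (2420 sites). Each list was divided by IP reads into 10 bands of equal size, band 1 holding the strongest sites. In band 2 of the native list, with 60 to 92 IP reads, 92.4% of sites were shared. The share was 54.3% in band 5 (51.9 to 56.8) and 28.6% in band 9 (26.4 to 30.9). In the V5 list it was 97.6% in band 2, 83.7% in band 5 (81.5 to 85.8) and 58.8% in band 9 (55.9 to 61.7). In the same band a V5 site was thus found in the native list more often than the reverse. With both lists held to the 11067 sites with most IP reads, the shares over whole lists were 67.4% of native and 67.1% of V5 sites.

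**Figure D1:**
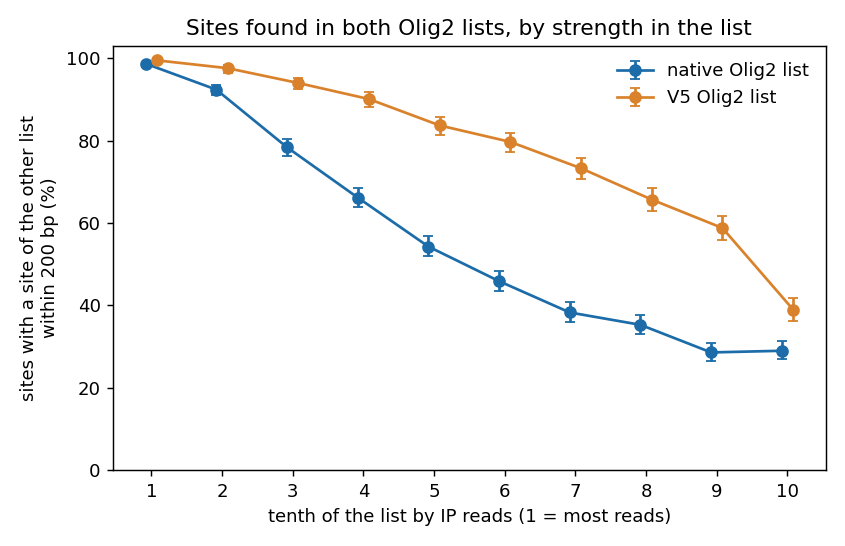
Percentage of sites with a site of the other Olig2 list within 200 bp (vertical axis) in each of 10 equal bands of a list by IP reads (horizontal axis, 1 holds the sites with most reads), for the native and the V5 list. Points are percentages and bars are Wilson 95% intervals. The native points go from 98.7% to 29.0% and the V5 points from 99.5% to 39.0%.

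A loss or gain of a strong site was rare. Of the 1570 native sites in band 1, 20 were native-only, and of the 1107 V5 sites in band 1, 6 were V5-only. For 4 of the 20 native sites a V5 site lay within 1 kb, and for 3 the nearest V5 site was more than 100 kb away. The native-only sites at 44892344 on chromosome 19 and 11211961 on chromosome 10 had 131 IP reads each, beside 2.7 and 11.3 control reads. Among the 6 V5-only sites, 15876003 on chromosome 19 had 154.7 IP reads and a native site 491 bp away. A V5-only site on chromosome 10, 15273594, lay 38603 bp from its nearest native site and had 143 IP reads.

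The 200 bp limit split some near neighbours. Of native sites just inside it, at 200 bp, the 3 with most IP reads are named. They were 77977816 on chromosome 11, 107969802 on chromosome 3 and 23790365 on chromosome 6, with 28.4, 18.2 and 18 IP reads. Just outside, at 201 bp, was 103945555 on chromosome 7 (61.7 IP reads). At 202 bp were 109068068 on chromosome 11, with 40.7, and 77902438 on chromosome 2, with 39.2. Few sites were this close to the limit without being shared: 5.36% of native-only and 9.21% of V5-only sites had a site of the other list between 200 and 500 bp away.

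To see what was gained or lost by locus, sites of both lists were joined into loci wherever neighbours lay within 10 kb. This gave 13301 loci, of which 53.1% (7060) held sites of both lists, 35.3% (4695) native sites alone and 11.6% (1546) V5 sites alone. The 7060 loci of both lists held 67.7% of native and 85.3% of V5 sites. In 5112 of them the number of native and V5 sites was equal, in 1402 native sites were more and in 546 V5 sites were more. Loci of 1 list were nearly always single sites (4363 of 4695 and 1473 of 1546). With lists of equal length the counts of native-alone and V5-alone loci were 2548 and 2546. With at least 30 IP reads asked of every site the order turned, with 1658 native-alone and 2213 V5-alone loci. That minimum left 8478 native and 9310 V5 sites, so the V5 list was then the longer.

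The locus with most sites lay on chromosome 6 between 52103432 and 52146228 (42.8 kb). It held 13 native sites with 17 to 103.6 IP reads and 10 V5 sites with 28.6 to 93.9, and 9 of each were shared. The strongest native site, at 52140926, ranked 1261 in the native list. The strongest V5 site was a different one, at 52114546, and ranked 1896 in the V5 list. A locus of 22.7 kb on chromosome 2, from 29691063 to 29713738, held 9 native and 11 V5 sites, 8 of each shared. Here the strongest native site, at 29691242 (131.1 IP reads), and the strongest V5 site, at 29712392 (108 IP reads), lay at opposite ends.

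A pair of dense loci lay close together on chromosome 8. That from 122915868 to 122945869 held 11 native and 8 V5 sites, all 8 V5 sites shared, and the strongest site was the same in both lists (149.5 native IP reads at 122931911 and 138 V5 IP reads 8 bp away). That from 123011846 to 123045616 held 12 native and 7 V5 sites, and 6 native sites were native-only. On chromosome 16, from 91168679 to 91193792, all 7 V5 sites were shared while 4 of 11 native sites were not. Its strongest site had 189 native IP reads at 91173796 and 126 V5 IP reads 11 bp away. On chromosome 3, from 51592595 to 51614857, all 5 V5 sites and 7 of 9 native sites were shared. The strongest native site there had 119 IP reads at 51599500, while the strongest V5 site had 208 at 51593156.

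**Figure D2:**
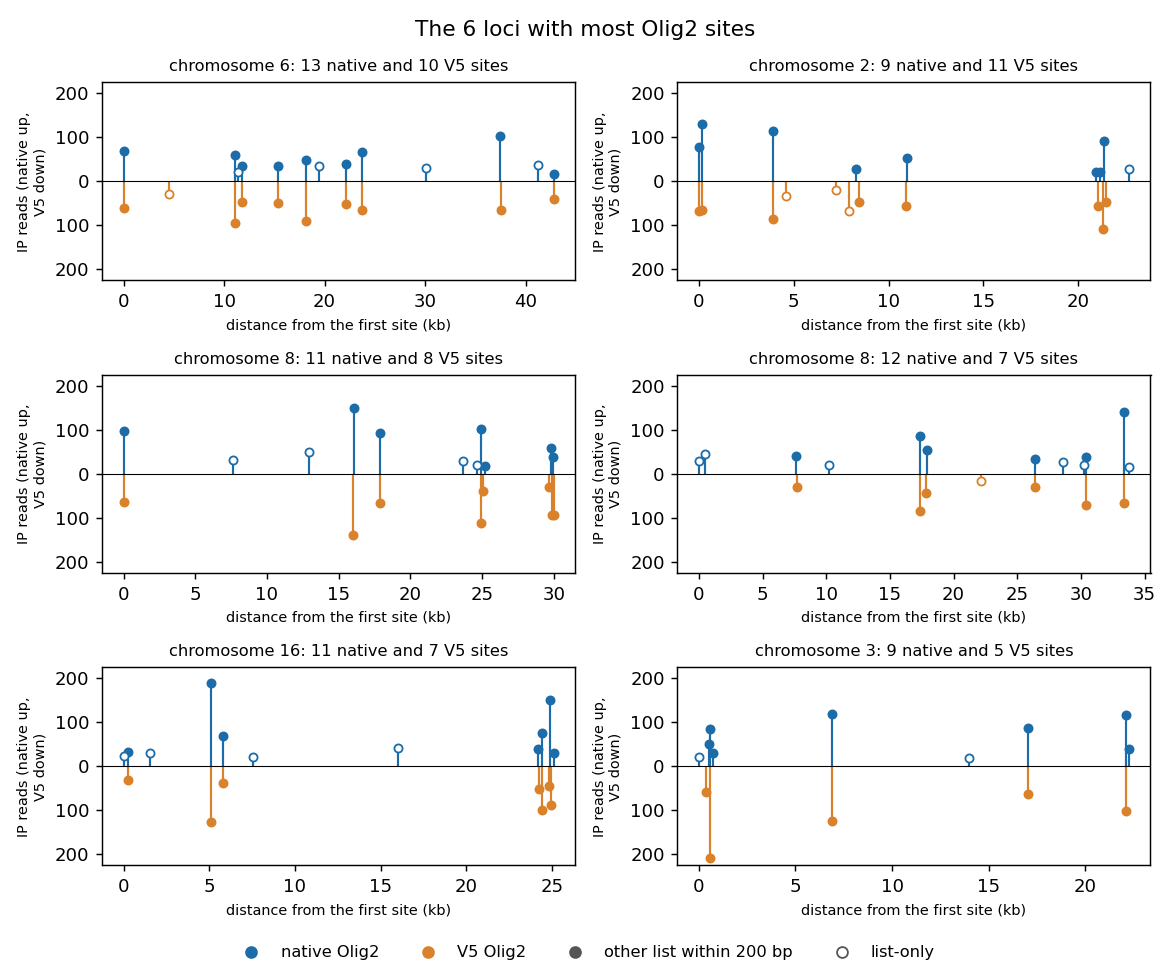
IP reads of each Olig2 site (vertical axis, native upward and V5 downward) against its distance in kb from the first site of the locus (horizontal axis) in the 6 loci with most sites. Filled points have a site of the other list within 200 bp and open points do not. In the locus on chromosome 16, all 7 V5 points are filled and 4 of 11 native points are open.

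Loci of several sites in 1 list alone were few. With 3 or more sites there were 32 native-alone and 7 V5-alone loci, and the 5 of each list with most sites are given. The native-alone locus from 146043201 to 146046601 on chromosome 2 held 4 sites of 24.2 to 37.8 IP reads, 70200 bp from the nearest V5 site at its strongest site. Those from 48111255 to 48116216 on chromosome 17 (24 to 36 IP reads) and from 195201382 to 195212518 on chromosome 1 (19.7 to 32.3) also held 4 sites each. Another on chromosome 1, from 62746660 to 62754162, had 4 sites of 15.8 to 27.4 IP reads, and that from 46943130 to 46945763 had 3 of 36 to 56. Their strongest sites ranked between 3470 and 9307 in the native list.

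Among V5-alone loci, 1 on chromosome 18 stood out with 3 sites of 44.1, 109.7 and 43.2 IP reads within 0.221 kb. The next, from 19161608 to 19161943 on chromosome 10, held 3 sites with 56, 49.4 and 30.6 IP reads. On the X chromosome, 3 sites of 35.1 to 41.4 IP reads lay between 70758465 and 70758880. The last of the 5 were at 112549995 to 112557847 on chromosome 8 (35 to 41.9 IP reads) and at 35715257 to 35724681 on chromosome 7 (25 to 40.3). At their strongest sites the nearest native site was between 40409 and 408903 bp away.

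Most list-only sites lay outside loci marked by the other list. A site of the other list between 200 bp and 10 kb away was seen for 24.7% of native-only sites (1679 of 6792; 23.7 to 25.8) and 32.7% of V5-only sites (791 of 2420; 30.8 to 34.6). Shared sites had a further site of the other list in that range more often, 31.6% of shared native sites (30.7 to 32.6) and 38.5% of shared V5 sites (37.5 to 39.5). Among distance classes that widen with distance, the class of 10 to 100 kb was the fullest, with 46.3% of native-only and 48.3% of V5-only sites. Beyond 100 kb from any site of the other list were 1971 native sites (12.6% of the list) and 459 V5 sites (4.15%).

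**Figure D3:**
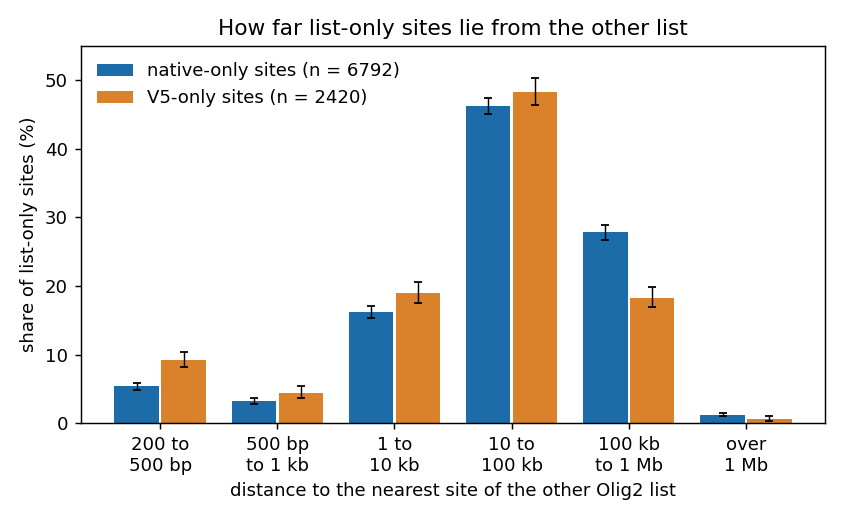
Percentage of list-only sites (vertical axis) by distance to the nearest site of the other Olig2 list (horizontal axis), for native-only and V5-only sites, with Wilson 95% intervals as bars. The classes are of unequal width. The class from 10 to 100 kb is the fullest for both, with 46.3% of native-only and 48.3% of V5-only sites.

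The strongest native site more than 100 kb from any V5 site was 62683288 on chromosome 1, with 139 IP reads (exact Poisson 95% interval 117 to 164) and 1.7 control reads. Chromosome 1 held another at 181497877 with 123 IP reads, chromosome 4 held 22926339 with 101, and chromosome 15 held 96535240 and 68712146 with 92 and 91. In the V5 list, chromosome 13 held the strongest at 35545446, with 133 IP reads (111 to 158) and the nearest native site 382 kb away. A pair of neighbouring V5 sites at 78599651 and 78599724 on chromosome 11 had 120.5 and 100.5 IP reads, and the nearest native site was 107 kb away. The others were a site on chromosome 18 and 97706881 on chromosome 13, with 89 IP reads each. The Poisson intervals, here and below, cover counting error alone. They were computed on IP reads rounded to whole counts. Any error in the estimated reads themselves, such as their division between neighbouring sites, is left out.

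At sites found in both lists the order of strength was similar but not the same. Mutually nearest sites within 200 bp gave 8356 one-to-one pairs, ranked by IP reads within each list over these same pairs and placed on a scale from 0 (weakest) to 100 (strongest). In 24.9% of pairs (2079; 24.0 to 25.8) the percentile differed by 25 points or more, upward in V5 in 12.4% (1035) and upward in native in 12.5% (1044). Ranking both lists over the same pairs keeps these counts close. The median difference in either direction was 13.1 points. With the pairs ranked in each list and divided into 3 nearly equal groups, 70.4% of the native upper group were in the V5 upper group and 6.18% in the V5 lower group. Among the 100 strongest native pairs, 98 were in the top 10% of V5 pairs, the lowest standing at percentile 85.8. Among the 100 strongest V5 pairs, 94 were in the top 10% of native pairs, the lowest at 84.8.

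The pairs that differed most in rank are given from those with at least 100 IP reads in either list. The pair at 145345491 on chromosome 7 had 16.4 native IP reads (exact Poisson 95% interval 9.15 to 26) and 113.6 V5 IP reads (94 to 137), percentiles 2.73 and 84.2. That at 151814295 on chromosome 7 had 20.7 native and 147.3 V5 IP reads, and that at 123464242 on chromosome 8 had 18.4 and 106. All 3 had another listed site within 175 bp. When all reads of a list within 500 bp were summed, their differences of 76.9 to 81.5 points became 33.7 to 44.1.

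The pair at 32553715 on chromosome 15 (20.1 native and 100.7 V5 IP reads) went from a difference of 71.5 points to one of -1.74 on summing. The native list had 3 sites within 500 bp there, with 91.1 IP reads in all, and the V5 list 1. By contrast, the pairs at 90923122 on chromosome 15 (19 and 107 IP reads) and 98672548 on chromosome 4 (19 and 102) had their nearest other site 14377 and 56904 bp away. Their percentiles differed by 76.2 and 74.7 points and, after summing, by 68.5 and 66.7. Both stood at percentile 6.18 in the native list, and at 82.4 and 80.8 in the V5 list.

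In the other direction, 53854118 on chromosome 10 had 104 native IP reads (85 to 126) and 28 V5 IP reads (18.6 to 40.5), percentiles 85.5 and 7.21. At 38493279 on chromosome 8 there were 110 native and 30 V5 IP reads, at 58872427 on chromosome 15 there were 110.4 and 32.5, and at 102997969 on chromosome 4 there were 112 and 33. All 4 kept differences of 67.2 to 72.8 points toward native after summing. The pair at 90242600 on chromosome 7 (102 and 31 IP reads) and a pair on chromosome 18 (139.9 and 31.5) each had 2 V5 sites within 500 bp, and their differences shrank from 73.7 and 79.6 points to 1.49 and 15.5 points.

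**Figure D4:**
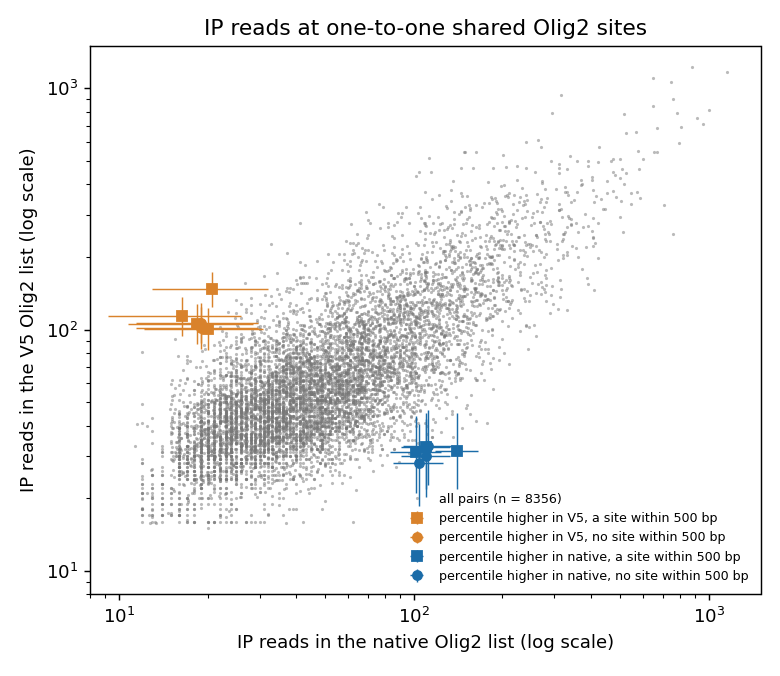
IP reads in the V5 list (vertical axis, log scale) against IP reads in the native list (horizontal axis, log scale) for the 8356 one-to-one pairs (grey), with the 12 named pairs in colour and exact Poisson 95% intervals as bars. Squares have another listed site within 500 bp and circles do not. The orange points have 16.4 to 20.7 native and 100.7 to 147.3 V5 IP reads, and the blue ones 102 to 139.9 native and 28 to 33 V5 IP reads.

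Differences in rank were commoner where sites lay close together. A difference of 25 points or more was seen in 28.2% of the 2343 pairs with another site within 500 bp (26.4 to 30.1) and in 23.6% of the 6013 without (22.5 to 24.7). With a neighbour, 413 pairs were higher in V5 and 248 higher in native; without one, 622 were higher in V5 and 796 higher in native. With reads summed within 500 bp it was 18.7% over all pairs. Spearman's rho of IP reads, given as a description across pairs that share 2 libraries, was 0.702 for single sites and 0.775 for summed reads.

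Sites with a neighbour in their own list within 500 bp were as common in both lists, 20.5% of native (3220) and 20.5% of V5 sites (2265), with median spacings of 192 and 190 bp. They were shared more often than lone sites (a neighbour can itself bring the other list within 200 bp), 79.1% against 51.0% in the native list and 86.2% against 76.1% in the V5 list. They were also stronger, with a median of 38.3 IP reads against 30 in the native list and 56.6 against 46 in the V5 list. Of 1731 native neighbour couples, both members were shared in 70.5%, 1 member in 18.0% and neither in 11.4%. Where both were shared, they faced different V5 sites in 687 of 1221 couples. Of 1205 V5 couples both members were shared in 79.8%, facing different native sites in 685 of 961.

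Stronger pairs were placed more exactly. The base positions of a pair differed by at most 10 bp in 55.9% of the strongest 10% of native pairs and in 33.5% of the weakest 10%, with medians of 9 and 18 bp. V5 positions were higher in coordinate than native ones in 4360 pairs, lower in 3822 and the same in 174, a median offset of 1 bp.

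With sites of 0 control reads included, the deposited fold of IP over control reads was similar at V5-only and shared V5 sites. The fold was lower at native-only than at shared native sites. Its median was 18.1 at V5-only and 18.4 at shared V5 sites, and 23.3 at native-only and 44.7 at shared native sites. A fold of IP over control reads of 10 or more, as deposited by the authors, was listed for 80.5% of V5-only (78.9 to 82.1) and 80.7% of shared V5 sites (79.8 to 81.5). It was listed for 93.0% of native-only (92.4 to 93.6) and 98.4% of shared native sites (98.1 to 98.7). Median control reads were 2.1 at V5-only and 3.1 at shared V5 sites, and 1 in both native classes. Median IP reads were lower at list-only sites, 32.5 against 54.1 in the V5 list and 24 against 43.5 in the native list.

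Native-only and V5-only sites differed in a readout that did not define them, the sites of Hoxc9, a Hox protein that gives motor neurons their thoracic identity. V5-only Olig2 sites coincided with Hoxc9 sites least often. A Flag Hoxc9 site lay within 200 bp of 12.4% of V5-only sites (301 of 2420; 11.2 to 13.8), 26.6% of native-only sites (1809 of 6792; 25.6 to 27.7) and 32.3% of shared native sites (31.3 to 33.2). Over all sites the shares were 29.8% of native and 27.3% of V5 sites. With the V5 Hoxc9 list the shares were 5.25% of V5-only (4.43 to 6.21), 10.7% of native-only (10.0 to 11.5) and 13.9% of shared native sites (13.2 to 14.7), beside 12.6% of all native and 11.6% of all V5 sites. The V5 Hoxc9 list was made with the same anti-V5 antibody as the V5 Olig2 list.

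**Figure D5:**
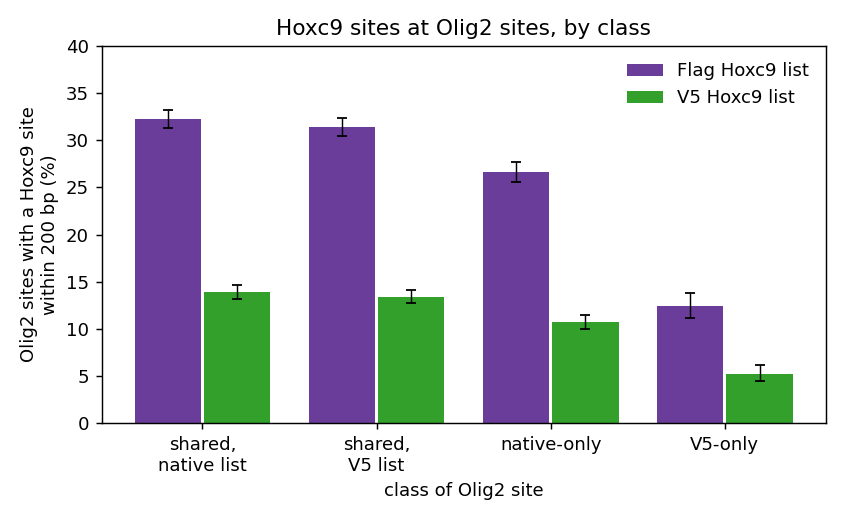
Percentage of Olig2 sites with a Hoxc9 site within 200 bp (vertical axis) in 4 classes of Olig2 site (horizontal axis), for the Flag and the V5 Hoxc9 list, with Wilson 95% intervals as bars. V5-only sites are lowest in both, at 12.4% and 5.25%.

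Among shared sites, Hoxc9 sites were commonest at the strongest Olig2 sites, so classes were compared within bands of strength. In bands 4 to 7 of the V5 list, a Flag Hoxc9 site was found at 12.6% of V5-only sites (10.5 to 15.0) and 27.9% of shared sites (26.5 to 29.4). In bands 8 to 10 the shares were 11.4% (9.89 to 13.1) and 27.5% (25.5 to 29.6). In bands 2 and 3, with 93 V5-only sites, they were 28.0% and 34.3%, with intervals of 19.9 to 37.8 and 32.3 to 36.3. With the V5 Hoxc9 list the shares in bands 2 and 3 were 5.38% (2.32 to 12) and 15.4% (13.9 to 17). The native list showed no such gap: in its bands 4 to 7, 28.2% of native-only (26.6 to 29.8) and 26.3% of shared sites (24.8 to 27.9) had a Flag Hoxc9 site. In its bands 8 to 10 they were 23.3% (21.9 to 24.8) and 24.2% (22.1 to 26.5). In its bands 2 and 3 they were 39.1% (34.7 to 43.6) and 35.4% (33.6 to 37.3). With the V5 Hoxc9 list the native shares in bands 2 and 3 were 18.1% (14.9 to 21.9) and 14.6% (13.3 to 16). Median control reads were 3.1 at shared V5 sites and 2.1 at V5-only sites, and their part in the gap was not tested. Among V5-only sites, those with a V5 Hoxc9 site had a median of 1.1 control reads and those without had 2.1.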

How the data were processed

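ChIP-seq event lists from 2 of 5 samples were analysed, with 2 Hoxc9 lists for comparison; the mock ChIP sample was left out. Per the submitters' processing notes, Bowtie 0.12.5 and mm9 were used for alignment. For the event caller, its version, settings and control library were not given in the sources used here. The V5 Hoxc9 list pools 2 libraries, per the design text. Per the file headers, the deposited tables give estimated counts of IP reads per event, control reads (whose scaling is not given), the deposited fold (ratio) of IP over control, and the authors' −log10 p. Library depth is unknown.

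Events on unplaced contigs were left out. Sites were matched by nearest position within 200 bp, joined within 10 kb into loci, and ranked by IP reads. No test was possible with 1 list per condition. Named by rule were: the 6 pairs with the largest percentile difference each way (at least 100 IP reads in either list), the 5 strongest sites of each list over 100 kb from the other, the 6 loci with most sites and the 5 of each list alone, and the 3 sites on each side of the 200 bp limit. The list-only sites named from band 1 were picked after their values were seen. Members, rules and lists were chosen with earlier results of these data known. Positions on chromosome 18 are not reported here. Planned E-box and gene analyses need an mm9 genome and were not run. The matching, ranking and locus steps were tested on simulated lists. Alternatives are given at the end. Scripts ran in Python 3.11.15 with SciPy 1.17.1, numpy 2.4.6 and pandas 2.3.3, and figures were drawn with matplotlib 3.10.9.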

Additional observations from a re-analysis of the deposited data

Results flagged for a closer look

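Outside the chromosomes compared, 7 events on unplaced contigs had more IP than control reads, 3 in the native and 4 in the V5 list. Their IP reads ran from 17 to 100 and their control reads from 0 to 8.3.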

How the results depend on the processing

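Of 74 alternatives to 15 results, 32 stayed within the main value's interval (counts within 1.5 times, rho within 0.05) and 42 moved. No paired analysis was possible because each list is a single library and no result comes from a test. Native and V5 sharing were 54.5% and 76.2% within 100 bp, 59.0% and 80.1% within 500 bp, 60.4% and 81.1% within 1000 bp, 73.5% and 67.0% with at least 30 IP reads, 54.4% and 76.8% with neighbours merged, 67.4% and 67.1% at equal length, and 70.5% and 70.4% in the top 5000 by deposited p. A fold of at least 10, asked of both lists, left 15081 native and 8924 V5 sites. It gave 48.1% of native sites, against a V5 list shortened more than the native one. V5 sites low in control reads gave 71.2%. The order of native and V5 sharing turned with the minimum of 30 IP reads, which left 8478 native and 9310 V5 sites. The planned E-box alternative was not run. Native-alone loci moved to 1658 with at least 30 IP reads and to 2548 at equal length, V5-alone loci to 2546. Native-only sites with a V5 site nearby were 17.8% within 5 kb, 35.0% within 20 kb, 22.3% with a fold of at least 10 and 23.7% with at least 30 IP reads. V5-only sites with a native site nearby were 24.6% within 5 kb, 43.6% within 20 kb, 23.1% with at least 30 IP reads and 24.9% at equal length. Rank differences of 25 points were seen in 28.7% of pairs by deposited p and in 18.7% with summed reads, an alternative added after seeing the data. With Hoxc9 sites within 500 bp, shared, native-only and V5-only sites gave 16.5%, 12.7% and 7.56% for V5 Hoxc9 and 36.5%, 30.4% and 16.9% for Flag Hoxc9. With the Flag list at V5 length they gave 13.2%, 10.4% and 2.89%. At 20 to 40 IP reads, shared native sites gave 9.84% (V5) and 24.9% (Flag), and native-only sites 10.4% and 25.9%. Shared V5 sites, ranked by the same reads as V5-only sites, gave 12.1% and 27.7%. V5-only sites were lowest in each of these, with 5.0% and 12.4% at 20 to 40 IP reads. Classes beyond 1 kb from the other list, also added later, kept their values within the intervals. The unknown depth limits every comparison of list length.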

Other observations

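The 5 strongest native sites more than 100 kb from any V5 site each lay within 40 bp of a Flag Hoxc9 site, as was seen after the sites had been named. Of the 5 such V5 sites, 4 had a Flag Hoxc9 site within 200 bp, including both of the neighbouring pair on chromosome 11. A V5 Hoxc9 site lay within 200 bp of 1 of the 5 native and 0 of the 5 V5 sites. Over all sites this far from the other list, 29.0% of 1971 native sites (27.1 to 31.1) and 12.0% of 459 V5 sites (9.32 to 15.3) had a Flag Hoxc9 site, and 11.6% (10.3 to 13.1) and 5.23% (3.54 to 7.66) had a V5 Hoxc9 site.

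Sharing varied little between chromosomes. It ran from 53.3% on chromosomes 4 and 9 to 59.9% on chromosomes 1 and 18 for native sites and from 73.0% on X to 81.7% on chromosome 16 for V5 sites. The X chromosome held 236 native and 174 V5 sites, with median IP reads of 26.85 and 40.7 beside 31.8 and 47.6 on the autosomes.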
